A study of Mus musculus with 23 samples.

Results

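The comparison set the hippocampus of undefeated mice labelled as knockout of Nrsn2 against that of undefeated wild-type mice. Of the 23 poly(A) RNA libraries of the series, 10 entered it, numbered 6 to 10 in each genotype. Another 3 libraries (wild-type 9B, knockout-labelled 10B and 11) were left out because title and treatment field disagree on whether the mouse was defeated, and the series design counts 5 controls. Of 39017 genes in the deposited tables, 18297 had a mean RPKM (reads per kilobase of gene, scaled to library size) of at least 0.5 over the 10 libraries and were tested. The remaining 20720 were not. The wild-type controls carry no allele or agent named in the labels, and the other group differs from them by the label Nrsn2 knockout alone. No source used here describes the allele, the strain of either genotype, or age and sex. A second pair of groups, used only to look at the same contrast in other animals, had been defeated on 10 days (chronic social defeat stress, CSDS), each time spending 5 min with an aggressive mouse not met before. It also had 5 libraries per genotype, and the 2 contrasts share no library.

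Nrsn2 encodes neurensin 2, a small membrane protein of neuronal vesicles and the relative of neurensin 1 (Nrsn1). The hippocampus holds the granule cells of the dentate gyrus and the pyramidal cells of CA1 to CA3, whose genes for transmitter receptors, activity response and stress response were followed as lists. Markers of each were present. The summed RPKM of 18 dentate genes ran from 163 to 198 in wild type and from 187 to 215 in libraries labelled knockout. That of 10 CA1 genes ran from 168 to 191 and from 171 to 180, and that of 16 CA2 and CA3 genes from 503 to 557 and from 521 to 563.

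The 10 libraries were sequenced to an estimated 36.71 to 55.68 M reads in wild type and 25.66 to 52.41 M reads in the knockout-labelled group, where library 7 was the shallowest. Library 10 of each genotype had high Xist (56.5 and 48.2 RPKM) and little Ddx3y, while the other 8 had the opposite. Choroid plexus RNA differed widely between libraries, and Ttr, its most abundant transcript, was 16.9 RPKM in wild-type library 6 against 552 to 4740 in the other 9. Pearson's r of log2 levels across genes was 0.9815 to 0.9930 within a group and 0.9802 to 0.9919 between groups. Nothing in the labels says more of the libraries' origin than a number for each, so the tests measure only the spread among these libraries. Tissue was measured in bulk, so fewer cells of a type and less RNA per cell cannot be told apart.

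The targeted gene was not lower in the libraries labelled knockout. Nrsn2 (ENSMUSG00000059361, chromosome 2, 152368755 to 152376638, mm10) was at 30.4, 31.5, 25.3, 28.6 and 29.96 RPKM in wild-type libraries 6 to 10. It was at 32.3, 31.4, 31.4, 28.0 and 33.1 RPKM in knockout-labelled libraries 6 to 10. The ranges overlapped, with means of 29.1 ± 2.42 and 31.2 ± 1.93 RPKM (SD, n = 5 each), a ratio of 1.07, and an exact two-sided permutation p of 0.183, where 5 against 5 can reach 0.00794. The limma log2 difference was 0.10 ± 0.06 (SE, adjusted p = 0.481). After CSDS, Nrsn2 was at 29.7 ± 2.55 RPKM in wild type and 34.1 ± 2.34 RPKM with the knockout label (n = 5 each, exact two-sided permutation p = 0.0317). The limma log2 difference there was 0.20 ± 0.06 (adjusted p = 0.123). Nrsn2 overlaps Gm14164 in position, and the kit keeps no strand. The 3 libraries left out were at 30.1, 34.8 and 32.8 RPKM. These are values over the whole gene, and reads per exon were not analysed here, so every direction below rests on the genotype label. Nrsn1 was at 80.3 ± 4.37 and 73.6 ± 4.26 RPKM, a log2 difference of −0.12 ± 0.05 that did not pass (adjusted p = 0.255).

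**Figure D1:**
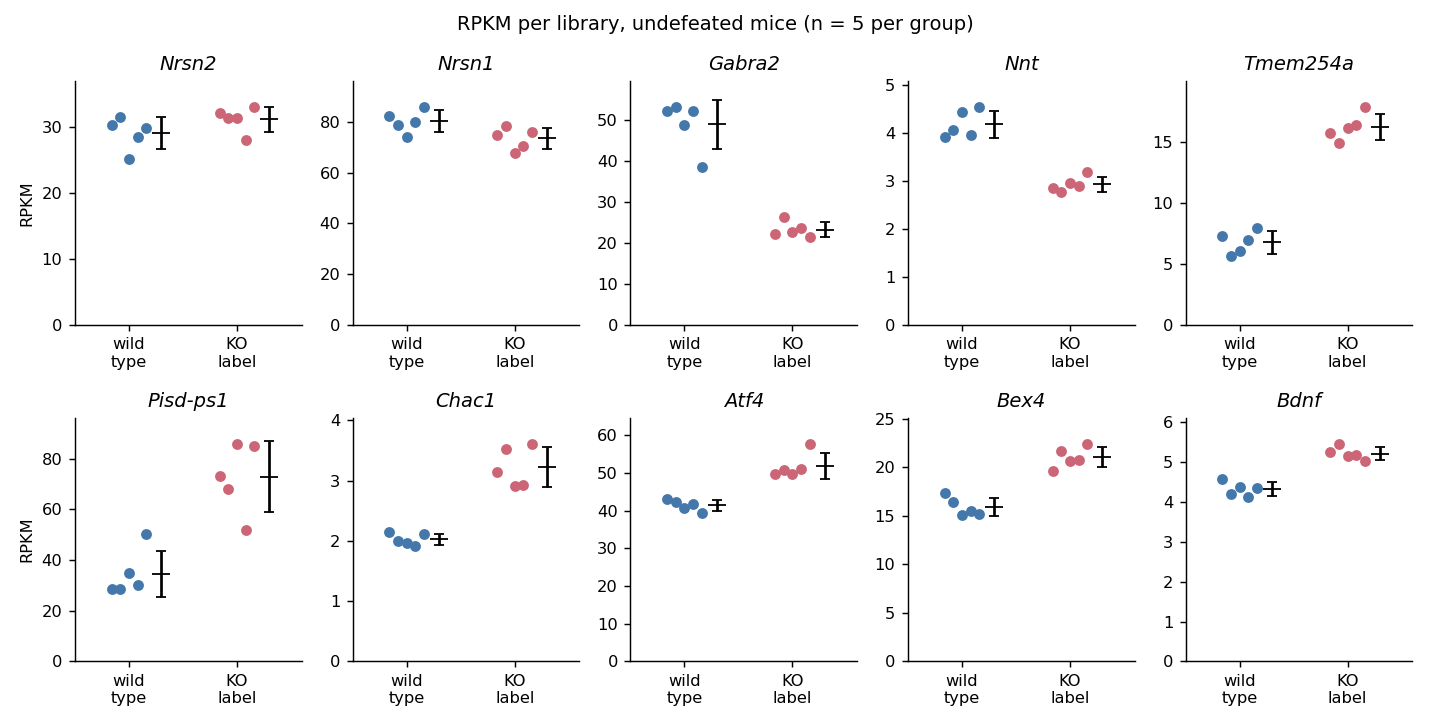
RPKM of 10 genes in each library of undefeated mice, wild type on the left and knockout label on the right of each panel, with the group mean and SD as a black bar (n = 5). Nrsn2 and Nrsn1 overlap between groups, while the 8 other genes do not.

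In limma-trend, 209 of 18297 genes passed an adjusted p of 0.05 (1.14%), 148 higher (0.809%) and 61 lower (0.333%) with the knockout label. These 209 are called genes from here on. Before adjustment, 1676 genes were higher (9.16%) and 1130 lower (6.18%) at p under 0.05. A log2 difference above 0 was found in 53.7% of all genes tested. Counts in the gene lists below are to be read beside these shares. The groups did not overlap for 905 genes (4.95%), 584 higher (3.19%) and 321 lower (1.75%), among them 205 of the 209. The median size of a called difference was 0.28 on the log2 scale, 34 reached 1.5-fold and 13 reached 2-fold. Without wild-type library 9 the count was 68, without wild-type 6 or 7 it was 101 or 115, and without knockout-labelled 6, 7, 8 or 9 it was 126, 131, 103 or 118. Each of the 209 kept its direction in every alternative that tested it.

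**Figure D2:**
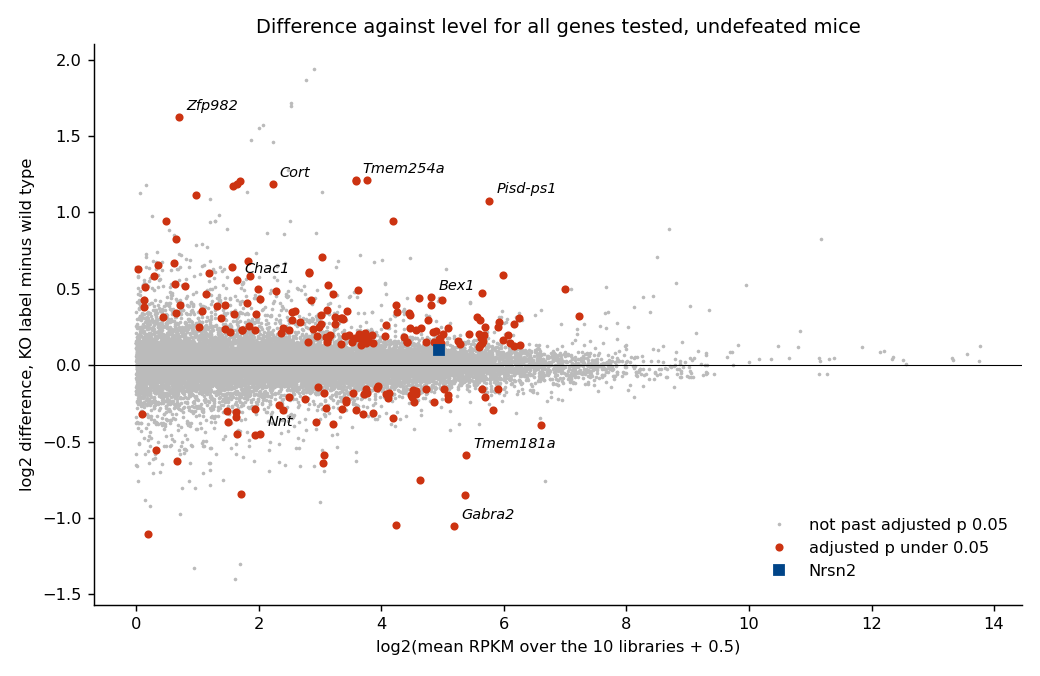
Log2 difference between genotypes (knockout label minus wild type) against mean level (log2 of mean RPKM + 0.5) for the 18297 genes tested, with the 209 past an adjusted p of 0.05 in red and Nrsn2 as a square. Most red points lie near the grey cloud, and a few, such as Tmem254a and Gabra2, differ more than 2-fold.

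Gabra2 and Nnt, from a list of genes known to differ between C57BL/6 substrains, were called lower. As background, substrains of C57BL/6 carry different forms of both genes. Gabra2 (ENSMUSG00000000560, chromosome 5, 70957597 to 71095849), the α2 subunit of the GABA-A receptor, was at 52.2, 53.1, 48.7, 52.2 and 38.6 RPKM in wild-type libraries 6 to 10. It was at 22.3, 26.2, 22.7, 23.5 and 21.4 RPKM in the libraries labelled knockout. The lowest wild-type library, 10, stayed well above the highest knockout-labelled one. The means were 49.0 ± 6.02 and 23.2 ± 1.84 RPKM, a log2 difference of −1.06 ± 0.09 (limma adjusted p = 0.00073), and the call was kept in all 10 fits that left 1 library out. After CSDS, in other mice, wild type had 50.4 and the knockout label 17.9 RPKM, a difference of −1.47 (adjusted p = 1.34e-09).

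Nnt (chromosome 13, 119335448 to 119408997), the mitochondrial transhydrogenase that makes NADPH, was 3.91 to 4.54 RPKM in wild type and 2.78 to 3.18 with the knockout label. The groups did not overlap (log2 difference −0.45 ± 0.05, adjusted p = 0.00444), and after CSDS the difference was −0.71 (adjusted p = 0.00143). Of the 17 substrain genes tested, 3 were called higher and 2 lower (0.809% and 0.333% of all genes were). Their median was −0.07 against 0.0077 for all genes. Without either library numbered 10, 7 were called lower. The 3 that were higher are Pisd, which encodes the mitochondrial phosphatidylserine decarboxylase, and its pseudogenes Pisd-ps1 and Pisd-ps2. Without wild-type library 9 none of these 3 passed. Wdfy1, of the same list, was 3.89 ± 0.13 and 3.80 ± 0.187 RPKM (adjusted p = 0.798), and Entpd4 12.2 ± 2.83 and 15.5 ± 2.01 RPKM (adjusted p = 0.304). Of the 75-base stretches of Nnt, 46.4% occur in a second gene model of that name. The strain of the groups was not tested.

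Pisd-ps1 (chromosome 11, 3125904 to 3131004) was at 28.5, 28.6, 35.0, 30.3 and 50.1 RPKM in wild-type libraries 6 to 10. It was at 73.1, 68.0, 85.8, 51.8 and 85.0 RPKM in the libraries labelled knockout. Wild-type 10 and knockout-labelled 9 came close to each other without crossing, and the log2 difference was 1.08 ± 0.18 (limma adjusted p = 0.0189). Pisd-ps2 on chromosome 17 differed by 0.94 ± 0.15 (adjusted p = 0.016). Pisd-ps1 lost its call without wild-type 6, 7 or 9 or without knockout-labelled 8, with adjusted p up to 0.065. After CSDS both were lower with the knockout label, Pisd-ps1 by −0.66 (adjusted p = 0.0113) and Pisd-ps2 by −0.65 (adjusted p = 0.0105), and the 2 contrasts differed (adjusted p = 0.000532 and 0.000528). Mean Pisd-ps1 in wild type was 34.5 RPKM in undefeated mice and 144 after CSDS, against 72.7 and 90.05 with the knockout label. Mean Pisd-ps2 was 12.03 and 46.5 RPKM in wild type, against 23.5 and 29.2 with the knockout label. Both genotypes were thus higher after CSDS, and wild type by more. The cause was not tested.

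A cluster of gene copies on chromosome 14 was more than 2-fold higher. Tmem254a (25923300 to 25927672), Tmem254b (26203369 to 26207041) and Tmem254c (26063919 to 26067355) encode the same kind of small membrane protein. Their starts hold identical sequence. A stretch of 234 bases before the start is common to all 3 in the RefSeq promoter table (GRCm38.p6), of which 80 bases are shown. These bases lie outside the 3 gene models, so they show likeness of the copies and not where reads fall. The stretch lies on the minus strand, at chr14:25927827-25927906 for Tmem254a, chr14:26207196-26207275 for Tmem254b and chr14:26067580-26067659 for Tmem254c.
Tmem254a, Tmem254b and Tmem254c: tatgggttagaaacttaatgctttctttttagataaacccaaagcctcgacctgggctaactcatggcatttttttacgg
Of the 75-base stretches of their transcripts, 73.4% in Tmem254a and 100% in the other two also occur in another gene, so their values are 1 measurement.

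Tmem254a was at 7.30, 5.65, 6.01, 6.91 and 7.91 RPKM in wild-type libraries 6 to 10. It was at 15.7, 14.9, 16.1, 16.4 and 17.8 RPKM in the libraries labelled knockout, far above the highest wild-type library, 10. The log2 difference was 1.21 ± 0.08 (adjusted p = 0.000163) for each of the copies, kept in all 10 fits without 1 library. After CSDS it was 0.52 for Tmem254a (adjusted p = 0.0359), with 12.6 RPKM in wild type and 18.6 with the knockout label. The neighbouring copies Plac9a, Plac9b and Gm9780, which share 96.6 to 99.7% of their 75-base stretches, were called higher by 1.19 ± 0.19, 1.20 ± 0.19 and 1.17 ± 0.18. They lost the call without wild-type library 9 (adjusted p up to 0.0567). After CSDS they differed by 0.33 to 0.35 and did not pass.

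A second family of copies, on chromosome 17, was lower. Tmem181a (6256860 to 6308314), which encodes a membrane protein, was 44.8 to 55.9 RPKM in wild type and 32.3 to 33.9 with the knockout label. Its log2 difference was −0.59 ± 0.05 (adjusted p = 0.000852). The pseudogene Tmem181b-ps differed by −0.75 ± 0.08 (adjusted p = 0.00303) and Tmem181c-ps by −1.05 ± 0.18 (adjusted p = 0.0286). Tmem181a and Tmem181b-ps kept the call in all 10 fits without 1 library, and Tmem181c-ps in 4 of them. Of their 75-base stretches, 29.0 to 60.6% occur in another gene. After CSDS all 3 were again lower, by −0.62, −0.80 and −0.61. A gene model with no symbol (ENSMUSG00000079733) was 44.7 to 61.7 RPKM in wild type and 27.0 to 30.5 with the knockout label, a log2 difference of −0.85 ± 0.07 (adjusted p = 0.000852).

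In the ATF4 pathway 4 genes were called, all higher. ATF4 is a transcription factor that is translated more when cells are short of amino acids or under stress, and it switches on genes for amino acid synthesis, transport and tRNA charging. Of 21 target genes tested, 4 were called higher (0.809% of all genes were) and none lower. The log2 difference was above 0 in 17 (53.7% of all genes), with a median of 0.14 against 0.0077 for all genes. At unadjusted p under 0.05, 10 were higher and none lower, beside 9.16% and 6.18% of all genes. The 9 bases TGATGNAAN, a form of the composite site that ATF4 binds with C/EBP proteins, were searched for on both strands in the 250 bases before each RefSeq start (GRCm38.p6). The motif stood before 5 of the 18 list genes found in that table, beside 3.89% of all 27025 genes. The list was made of ATF4 target genes, so its share of matches is no result of these data. The 2 called genes with a match are shown with the match in capitals, read in the direction of the gene. Chac1 is at chr2:119351012-119351092 (plus strand, match 194 bases before the start) and Asns at chr6:7693214-7693242 (minus strand, match 23 bases before the start).
Chac1: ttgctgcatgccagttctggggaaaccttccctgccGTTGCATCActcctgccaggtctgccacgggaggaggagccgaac
Asns: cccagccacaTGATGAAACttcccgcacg
In Chac1 the motif reads on the opposite strand. The other matches were before Slc7a11, Nupr1 and Vldlr, none of which was called. A match is a description of these letters, and no binding was measured.

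Chac1 (chromosome 2, 119351229 to 119354381), which degrades glutathione, was at 2.15, 2.00, 1.96, 1.92 and 2.11 RPKM in wild-type libraries 6 to 10. It was at 3.14, 3.53, 2.92, 2.93 and 3.61 RPKM with the knockout label. All knockout-labelled libraries lay above all wild-type ones, and the log2 difference was 0.56 ± 0.06 (limma adjusted p = 0.0042). Atf4 itself was 39.4 to 43.1 RPKM and 49.8 to 57.7 RPKM (0.32 ± 0.04, adjusted p = 0.0106), with library 10 the highest of its group. Mthfd2, a mitochondrial folate enzyme, was 1.86 ± 0.109 and 2.61 ± 0.227 RPKM (0.40 ± 0.06, adjusted p = 0.0139). Asns, asparagine synthetase, was 22.5 ± 0.685 and 26.7 ± 1.29 RPKM (0.24 ± 0.04, adjusted p = 0.014). Chac1, Atf4 and Mthfd2 kept the call in all 10 fits without 1 library, and Asns lost it without wild-type 9 (adjusted p = 0.0519). After CSDS the 4 were called higher again, by 0.50, 0.36, 0.39 and 0.30. Ddit3 and Slc7a5 of the same list differed by −0.04 and 0.06 (adjusted p = 0.674 and 0.696).

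Genes for aminoacyl-tRNA synthetases, the enzymes that load tRNAs with amino acids, were taken as a list after their values were seen. Of 37 tested, 5 were called higher (Yars, Cars, Gars, Iars2 and Nars) and 1 lower (Hars), with a median of 0.08. Over all genes, 0.809% were called higher and 0.333% lower. Yars, for tyrosine, was 11.1 ± 0.324 and 12.7 ± 0.219 RPKM, a log2 difference of 0.18 ± 0.03 (adjusted p = 0.014). Cars, for cysteine, differed by 0.24 ± 0.04, Gars, for glycine, by 0.14 ± 0.02 and Hars, for histidine, by −0.22 ± 0.03. Without wild-type library 9, 2 were called higher and none lower, and with each library centred on its median 1 was called higher. Hars overlaps Hars2 at 1 end, where reads cannot be told apart without strand, and 4.86% of the 75-base stretches of Hars occur in Hars2.

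Chaperone genes of the endoplasmic reticulum were not called. Of 23 tested, none passed in limma, 8 were lower and none higher at unadjusted p under 0.05, and the median was −0.12. Hspa5, the main chaperone of that compartment, was 107 ± 12.5 and 83.9 ± 7.86 RPKM (adjusted p = 0.0904), with knockout-labelled library 10 at 97.8 RPKM and the other 4 between 78.9 and 82.4. Calr, a calcium-binding chaperone, was 126 ± 5.45 and 108 ± 8.03 RPKM (adjusted p = 0.0788). Xbp1, which switches on chaperone genes, was 23.5 ± 1.19 and 20.7 ± 1.01 RPKM (adjusted p = 0.0851). Without knockout-labelled library 10, 2 of the list passed. Among 22 cytosolic chaperone genes none passed in limma, 2 were lower at unadjusted p under 0.05, and the median was −0.06.

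On the X chromosome a run of small genes was higher. The Bex and Tceal genes encode short proteins of neurons related to a transcription elongation factor and lie side by side, and they were taken as a list after their values were seen. Of 11 tested, 6 were called higher (0.809% of all genes were) and none lower, with a median of 0.25. Bex4 (136138996 to 136140443) was at 17.3, 16.4, 15.1, 15.5 and 15.2 RPKM in wild-type libraries 6 to 10. It was at 19.7, 21.7, 20.7, 20.8 and 22.4 RPKM with the knockout label, all above wild type. The log2 difference was 0.39 ± 0.05 (adjusted p = 0.00571).

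Bex1 differed by 0.44 ± 0.06, Tceal7 by 0.47 ± 0.06, Bex2 by 0.32, Tceal8 by 0.31 ± 0.04 and Tceal1 by 0.25. Bex3 was at −0.06 (adjusted p = 0.67). The 6 calls stood without any one library except wild-type 9, where 5 did. Bex1 and Tceal7 overlap in position, and Bex1, Bex2 and Bex4 share sequence (26.0% of the 75-base stretches of Bex1, 38.3% of those of Bex4), so these values are uncertain as values of single genes. After CSDS, Bex4, Tceal7, Bex1, Tceal8 and Bex2 were called higher again, by 0.41, 0.45, 0.47, 0.23 and 0.29. In Bex1, Bex2 and Tceal7, library 10, which had high Xist in each genotype, was the lowest of wild type and the highest of the knockout label. Without both libraries numbered 10 all 6 were still called. Over the X chromosome 18 of 717 genes were called, 16 of them higher, beside 1.14% of all genes called.

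RNA-binding genes and mitochondrial tRNA genes, both listed after their values were seen, held calls in the higher direction only (0.809% of all genes were called higher). Of 38 Snrp and Hnrnp genes, which encode spliceosome core proteins and RNA-binding partners, 7 were called higher and none lower, with a median of 0.06. Snrpd1, a ring protein of the spliceosome, was 23.8 ± 1.32 and 31.4 ± 2.32 RPKM (log2 difference 0.39 ± 0.05, adjusted p = 0.0106). Snrpd3 differed by 0.30 ± 0.05, Hnrnpr by 0.19 ± 0.03 and Hnrnpdl by 0.16 ± 0.02. Without wild-type library 9 only 1 of this list passed. Of 22 mitochondrial tRNA genes, 3 were called higher, with a median of 0.25. Mt-Tf, for phenylalanine, was 49.8 ± 4.59 and 75.3 ± 6.06 RPKM (0.59 ± 0.07, adjusted p = 0.00571), mt-Tt 106 ± 11.2 and 149 ± 4.98, and mt-Tv 41.7 ± 5.15 and 57.8 ± 4.33. These genes are about as short as a read, and the poly(A) kit selects against tRNAs. Without either library numbered 10, 7 of the 22 passed. The 13 protein genes of the mitochondrial genome had a median of 0.06 and no call in limma (1 higher at unadjusted p under 0.05).

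Lists of synaptic transmission genes held 0 or 1 call each, beside 1.14% of all genes called. Of 21 genes for GABA receptors, synthesis and transport, Gabra2 was the only call, and the median was −0.04. Abat, which breaks down GABA, was 34.1 ± 0.865 and 31.8 ± 0.915 RPKM (adjusted p = 0.12), and Gabbr2, a subunit of the GABA-B receptor, 50.2 ± 1.64 and 45.1 ± 3.5 (adjusted p = 0.18). Of 27 AMPA receptor subunit and auxiliary genes, 1 was called lower, Nptx2, with a median of −0.02. The subunit genes Gria1 (154 ± 8.59 and 156 ± 11.5 RPKM) and Gria2 (127 ± 5.33 and 129 ± 10.1 RPKM) had adjusted p of 0.884 and 0.861. The 95% interval of the log2 difference ran from −0.10 to 0.15 for Gria1 and from −0.09 to 0.15 for Gria2. Cacng5, an auxiliary subunit gene, was 4.12 ± 1.13 and 2.45 ± 0.49 RPKM (adjusted p = 0.121). Of 13 NMDA and metabotropic glutamate receptor genes, 1 was called lower, 12 were below 0 and the median was −0.05. The called one was Grm4, a presynaptic receptor, at 2.94 ± 0.269 and 2.22 ± 0.20 RPKM (−0.34 ± 0.07, limma adjusted p = 0.046). None of 29 synaptic vesicle genes and none of 26 postsynaptic scaffold genes was called in limma. At unadjusted p under 0.05, 4 vesicle genes were lower and none higher, and 7 scaffold genes were lower and 1 higher. In each of these 2 lists 21 genes were below 0, where 53.7% of all genes were above 0. Their medians were −0.04 and −0.07.

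Neurotrophin and peptide genes gave calls in both directions. Bdnf (chromosome 2, 109674700 to 109727007), which encodes a growth factor that strengthens synapses, was at 4.58, 4.20, 4.38, 4.11 and 4.35 RPKM in wild-type libraries 6 to 10. It was at 5.26, 5.46, 5.16, 5.17 and 5.02 RPKM with the knockout label, with no overlap. The log2 difference was 0.24 ± 0.04 (limma adjusted p = 0.014), kept in all 10 fits without 1 library, and 0.21 after CSDS (adjusted p = 0.0365).

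Pcsk1, a protease that cleaves peptide precursors, was 8.11 ± 0.741 and 6.14 ± 0.57 RPKM (−0.37 ± 0.07, adjusted p = 0.0392), a call kept in 2 of 10 fits. Cort (chromosome 4, 149125034 to 149126763), which encodes the peptide cortistatin of inhibitory interneurons, was 1.57 to 2.98 RPKM and 5.25 to 7.63 RPKM. Its log2 difference of 1.19 ± 0.14 (adjusted p = 0.00572) was kept in all 10 fits and was 1.02 after CSDS (adjusted p = 2.96e-05). Of 20 neuropeptide and stress circuit genes, 2 were called higher and 1 lower (0.809% and 0.333% of all genes were), with a median of 0.02. Crhbp, which binds and blocks corticotropin-releasing hormone, was 9.77 ± 1.31 and 13.9 ± 1.10 RPKM (0.49 ± 0.09, adjusted p = 0.0321), and again higher after CSDS by 0.43. Tac1, the substance P precursor, was 1.67 ± 0.198 and 2.34 ± 0.233 RPKM (adjusted p = 0.0447). Oxtr, the oxytocin receptor, was 2.60 ± 0.165 and 2.02 ± 0.138 RPKM (adjusted p = 0.0321). The calls of Crhbp, Oxtr and Tac1 were kept in 4, 2 and 1 of 10 fits without 1 library.

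Immediate early genes are those that neurons transcribe within minutes of activity. Of 29 tested, 2 were called lower (0.333% of all genes were) and none higher, with a median of −0.09. The log2 difference was below 0 in 23 and above 0 in 6, where 53.7% of all genes were above 0. At unadjusted p under 0.05, 7 were lower and 1 higher, beside 6.18% and 9.16% of all genes. The higher one, Klf10, was 6.62 ± 0.525 and 8.27 ± 0.855 RPKM (0.30 ± 0.07, limma adjusted p = 0.0787). Fosb, a part of the AP-1 factor, was 2.72 to 3.26 RPKM in wild type and 2.10 to 2.49 with the knockout label (−0.31 ± 0.05, adjusted p = 0.0288, kept in 3 of 10 fits). Nptx2, a secreted protein that clusters AMPA receptors, was 8.87 ± 0.333 and 7.23 ± 0.692 RPKM (−0.28 ± 0.06, adjusted p = 0.0496, kept in 1 of 10). Fos was 4.5 ± 0.778 and 3.43 ± 1.02 RPKM and Arc 27.1 ± 4.02 and 22.3 ± 5.75 RPKM, and neither passed (adjusted p = 0.307 and 0.429). In both, knockout-labelled library 10 was the highest of its group and lay within the wild-type range. Of 23 clock genes, 1 was called lower, Per2, with a median of −0.05. It was 6.80 ± 0.424 and 5.77 ± 0.149 RPKM (−0.22 ± 0.04, adjusted p = 0.039), kept in 3 of 10 fits. The hour of death is not given in the sources used here. Fkbp5, a gene that glucocorticoids induce, was 10.5 ± 0.716 and 9.42 ± 1.14 RPKM (adjusted p = 0.361), and none of 23 glucocorticoid receptor and responsive genes was called in limma (3 lower at unadjusted p under 0.05).

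**Figure D3:**
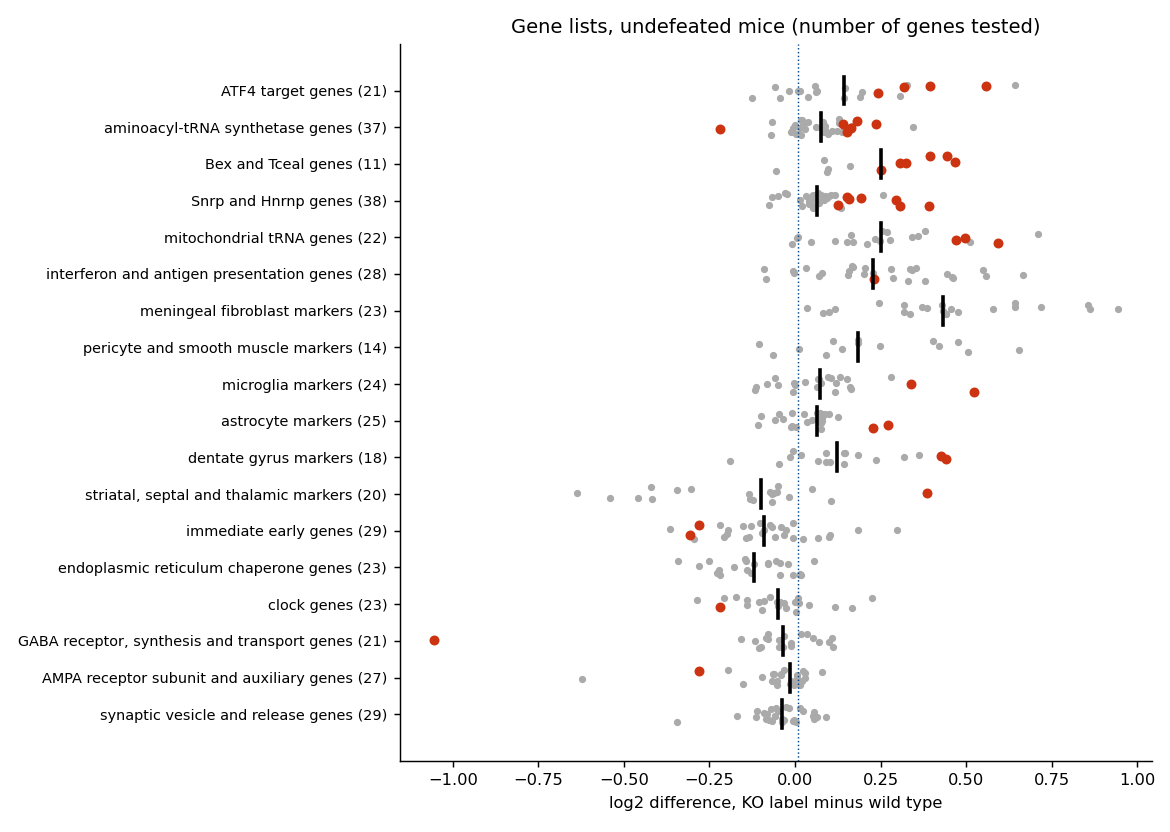
Log2 difference (knockout label minus wild type) of every tested gene of 18 lists, with the number tested in brackets, called genes in red, the median of the list as a black bar and the median of all genes as a dotted line. The Snrp and Hnrnp, Bex and Tceal, synthetase, ATF4 and mitochondrial tRNA lists each hold several red points above 0. The synthetase list also holds 1 below 0, and meningeal markers lie to the right with none called.

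Some markers of hippocampal and other cells were called too, beside 0.809% of all genes called higher and 0.333% lower. Of 18 dentate gyrus markers, 2 were called higher (Trpc6 and C1ql2), with a median of 0.12. C1ql2, a secreted synaptic protein of mossy fibres, was 16.7 to 23.9 RPKM and 27.4 to 28.1 RPKM (0.44 ± 0.08, adjusted p = 0.0236), and Trpc6, a cation channel gene, was 5.66 ± 0.535 and 7.78 ± 0.62 RPKM (0.43 ± 0.07, adjusted p = 0.0165). Trpc6 lost its call only without wild-type 9 (kept in 9 of 10 fits). C1ql2 lost its call without wild-type 9 or knockout-labelled 6, 7, 8 or 9 (kept in 5 of 10 fits). Prox1, a defining factor of granule cells, was 11.3 and 12.9 RPKM (adjusted p = 0.434). None of 10 CA1 markers was called in limma, 2 were lower at unadjusted p under 0.05, and their median was −0.13.

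Of 25 astrocyte markers, 2 were called higher, Gfap, an intermediate filament (64.6 ± 2.35 and 78.2 ± 4.45 RPKM, 0.27 ± 0.04, adjusted p = 0.014), and Aqp4, a water channel (means of 26.8 and 31.5 RPKM, 0.23 ± 0.04, adjusted p = 0.0223). Gfap kept the call in all 10 fits without 1 library, Aqp4 in 5. The summed level of the list overlapped, 1356 to 1525 RPKM in wild type and 1428 to 1506 with the knockout label. Neither differed after CSDS, where Gfap was at 0.02 and Aqp4 at 0.04. Of 24 microglia markers, 2 were called higher, Olfml3 (0.34 ± 0.07, adjusted p = 0.043) and Fcrls (0.52 ± 0.11, adjusted p = 0.047). Wild-type library 10 had 8.92 RPKM of Fcrls and lay within the knockout-labelled range. The calls were kept in 2 and 1 of 10 fits, and the summed levels were 250 to 296 and 271 to 312 RPKM. For both marker lists, the share of all genes called higher was 0.809%.

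Markers of tissue around the hippocampus differed between libraries. All 23 meningeal fibroblast markers tested were above 0, with a median of 0.43, none was called in limma (4 higher at unadjusted p under 0.05), and their sums ran from 86.1 to 266 RPKM in wild type and from 134 to 256 with the knockout label. Over all genes, 53.7% were above 0 and 9.16% were higher at unadjusted p under 0.05. After CSDS the median of the meningeal markers was −0.60. Slc6a13, a transporter of the meninges, was 1.35 to 8.32 RPKM and 4.41 to 10.6 RPKM. The 14 pericyte and smooth muscle markers had a median of 0.18, no call in limma, 7 higher at unadjusted p under 0.05, and sums of 69.2 to 101 and 81.8 to 114 RPKM. The choroid plexus sum ran from 125 to 5915 and from 792 to 5348 RPKM. Of 20 striatal, septal and thalamic markers, 1 was called higher (Tac1), 8 were lower at unadjusted p under 0.05, and the sums ran from 105 to 122 and from 92.7 to 108 RPKM. Calb2, found in thalamus and interneurons, was 26.1 ± 3.21 and 19.4 ± 1.79 RPKM (adjusted p = 0.0563), and Prkcd, a thalamic kinase gene, was 6.71 ± 1.19 and 4.44 ± 0.775 RPKM (adjusted p = 0.0893). The part of these markers in the results was not tested.

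Interferon and antigen presentation genes held 1 call. Of 28 tested, 1 was called higher (0.809% of all genes were), 24 were above 0 (53.7% of all genes) and the median was 0.23. The call was not kept in every fit without 1 library, with 0 to 2 of the list called. Ifit3 was 3.62 ± 0.429 and 6.14 ± 1.40 RPKM (adjusted p = 0.0544), Usp18 0.531 ± 0.0684 and 1.04 ± 0.339 (adjusted p = 0.0942) and Irf7 0.502 ± 0.0542 and 0.772 ± 0.153 (adjusted p = 0.108). Of the 75-base stretches of Ifit3, 41.1% occur in another gene, Ifit3b. That copy, outside the list, was called higher by 0.58 (limma adjusted p = 0.0311). Its difference was −0.28 after CSDS (adjusted p = 0.244), and the 2 contrasts differed (adjusted p = 0.0478). After CSDS the list had no call and a median of −0.13. The sum was lowest in wild-type 6 (128 RPKM), the library with the lowest meningeal and choroid plexus sums, and highest in knockout-labelled 10 (238 RPKM).

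Called genes were also placed along the genome. Within 5 Mb of Nrsn2, 6 of 156 tested genes were called (3.85%, against 1.14% of all genes), 3 higher and 3 lower, and within 1 Mb 3 of 40. Within 10 Mb the 6 were of 232 (2.59%), so none lay between 5 and 10 Mb. The median difference within 5 Mb was 0.006. Necab3 (154544399 to 154558890), a calcium-binding protein gene, was at 9.58, 8.91, 9.25, 9.07 and 11.0 RPKM in wild-type libraries 6 to 10. It was at 6.64, 5.90, 6.51, 5.70 and 6.25 RPKM with the knockout label, clear of wild type. The log2 difference was −0.59 ± 0.06 (adjusted p = 0.00303), kept in all 10 fits without 1 library.

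The gene 1700003F12Rik (−0.45 ± 0.09, adjusted p = 0.0419) lies within Necab3 in position. No 75-base stretch of the transcripts of either gene occurs in another gene. Whether the 2 differences are separate was not tested. Mcts2 (152687035 to 152687946), a translation initiation gene inside H13, was 6.67 ± 0.408 and 8.50 ± 0.30 RPKM (0.33 ± 0.04, adjusted p = 0.00908), also kept in all 10. Ccm2l, an endothelial adaptor gene, differed by 0.39 ± 0.07, Pofut1, which adds fucose to Notch, by 0.23 ± 0.04 and Cnbd2 by −0.29 ± 0.05, kept in 2, 3 and 5 of 10 fits. Cnbd2 overlaps Scand1 and other gene models, and 19.8% of its 75-base stretches occur in other genes, Gm26880 among them. After CSDS none of the 6 passed. Necab3 was then at −0.03 (adjusted p = 0.927), with 7.79 RPKM in wild type and 7.51 with the knockout label, and the difference between the 2 contrasts did not pass for any of them (adjusted p from 0.0532 for Pofut1 to 0.246 for 1700003F12Rik).

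**Figure D4:**
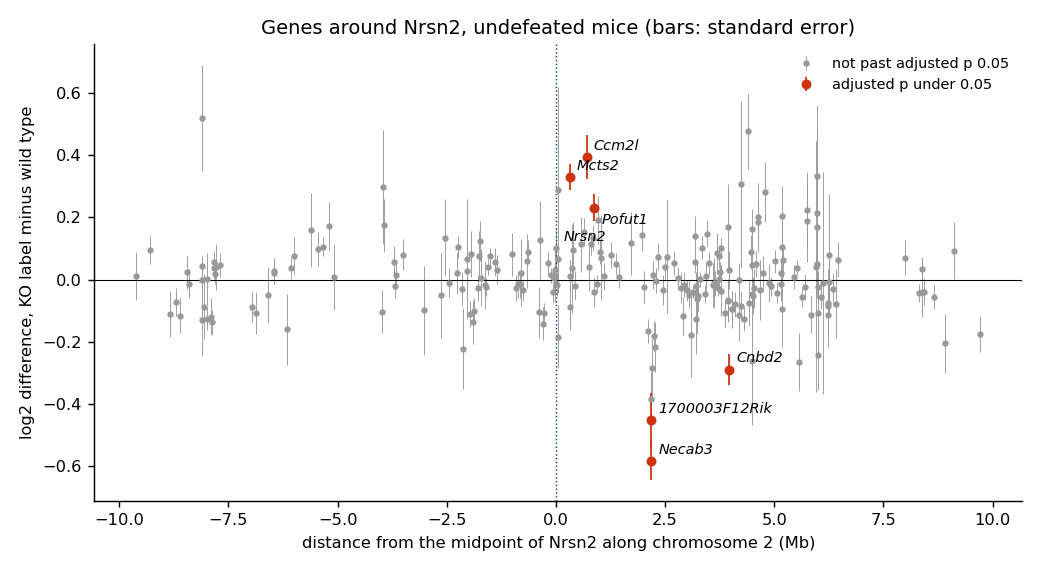
Log2 difference (knockout label minus wild type, bars are the SE) of genes within 10 Mb of the midpoint of Nrsn2 on chromosome 2, by distance in Mb, with called genes in red and named. The 6 called genes lie on 1 side of Nrsn2, and Nrsn2 itself is near 0.

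Windows of 5 Mb elsewhere held a larger share of called genes. The window from 140 to 145 Mb of chromosome 4 had 7 of 47 and the next, from 145 to 150 Mb, had 6 of 85. Chromosome 14 from 25 to 30 Mb had 6 of 32 and the window of the Bex and Tceal genes on the X chromosome 6 of 38. These are the genes described above, and the 6 on chromosome 14 are 2 sets of near-identical copies rather than 6 separate measurements. The 4 windows and that of Nrsn2 (5 of 81 from 150 to 155 Mb of chromosome 2) held 30 of the 206 called genes with a position. With windows of 10 Mb the largest count was 13 of 132, on chromosome 4 from 140 to 150 Mb.

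The 13 called genes of chromosome 4 from 140 to 150 Mb were 8 higher and 5 lower. In 10 of the 13, wild-type library 8 was the wild-type library nearest to the knockout-labelled mean, and over all 209 called genes it was so in 55. Mfap2 (141010418 to 141015984), a protein of elastic fibres, was at 1.44, 1.71, 2.43, 1.77 and 1.74 RPKM in wild-type libraries 6 to 10. It was at 2.92, 3.09, 3.40, 2.87 and 3.19 RPKM with the knockout label, so library 8 was the highest of each group. The log2 difference was 0.65 ± 0.10 (limma adjusted p = 0.014). Arhgef19, a guanine nucleotide exchange factor gene, differed by 0.68 ± 0.10 and Crocc, a gene of the ciliary rootlet, by 0.71 ± 0.14. Mfap2 and Arhgef19 kept the call in all 10 fits without 1 library, and Crocc in 1.

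Zfp982, a zinc finger gene of the same stretch, had the largest difference of the named genes, 1.63 ± 0.27 (adjusted p = 0.0205). It was at 0.112, 0.22, 1.17, 0.044 and 0.169 RPKM in wild-type libraries 6 to 10 and 1.41 to 2.32 RPKM with the knockout label. Library 8 stood apart from the other 4 wild-type libraries, and without it the adjusted p was 0.000484. The call was lost without wild-type 6, 7 or 9 or knockout-labelled 8 or 9. After CSDS, 2 of the 12 genes of the stretch that were tested were called, Cort and Tardbp. The wild-type mice after CSDS had 3.16 ± 0.18 RPKM of Mfap2 and 2.00 ± 0.46 of Zfp982, near the knockout-labelled controls. The difference between the contrasts passed for 5 of the 13, Mfap2, Arhgef19, Prdm2 and Zfp982 among them. The cause was not tested.

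The 10 libraries after CSDS gave the same comparison in other mice. There 349 of 18225 genes were called (1.91%), 200 higher (1.10%) and 149 lower (0.818%). Of the 209 genes called in undefeated mice 207 were tested, 177 had the same sign, 118 had the same sign at unadjusted p under 0.05 and 58 were called again in the same direction. These 58 are 27.8% of the calls in undefeated mice and 16.6% of those after CSDS, 43 of them higher and 15 lower. They include Gabra2, Nnt, the Tmem254 and Tmem181 copies, Chac1, Atf4, Mthfd2, Asns, Cort, Crhbp, Bdnf, 5 Bex and Tceal genes and Snrpd1.

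Another 5 were called in the opposite direction, Pisd, its pseudogenes, Gm20671, which overlaps Pisd, and Olfml3. The difference between the contrasts passed for 27 of 18263 genes (0.148%), 13 of which were called in undefeated mice. Olfml3, a secreted protein of microglia, was 2.94 ± 0.241 and 3.85 ± 0.361 RPKM in undefeated mice and 3.93 and 3.42 RPKM after CSDS. Wdfy1 did not pass in undefeated mice and was lower by −0.84 after CSDS (adjusted p = 0.000528), with wild type at 8.09 RPKM and the knockout label at 4.25.

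**Figure D5:**
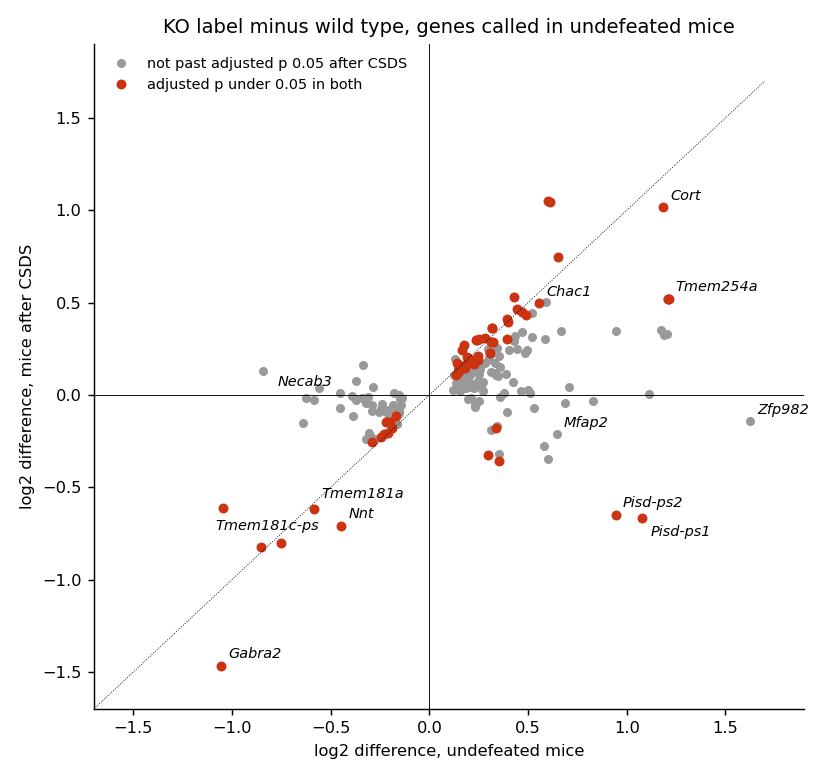
Log2 difference between genotypes after CSDS against that in undefeated mice for the 207 called genes tested in both, in red where both passed an adjusted p of 0.05, with the line of equal difference dotted. Cort and Chac1 lie near the line, and Gabra2 and Nnt lie further below 0 after CSDS than in undefeated mice. Pisd-ps1 and Pisd-ps2 lie below 0 after CSDS, and Zfp982 lies near 0 there.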

How the data were processed

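Hippocampal poly(A) RNA was sequenced as 75-base single-end reads with a kit that keeps no strand, per the labels' protocols. Reads were aligned with STAR to mm10, per the submitters' processing notes. No STAR version, annotation or counter is named in the sources used here. The authors deposited RPKM per library in 2 tables, 1 per genotype, which were joined by gene ID, and all 39017 genes had the same position in both. Every library column was mapped by its title.

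The test was limma-trend on log2(RPKM + 0.5) of genes whose mean RPKM was at least 0.5 (limma 3.58.1, R 4.3.3), two-sided, Benjamini-Hochberg over all genes, threshold 0.05. The pseudocount makes folds of low genes too small. Depth was estimated from 11588 single-exon genes, where at least 94.7% of values were within 0.05 of a whole read. The fit was tested on simulated data. Nrsn2 had an exact permutation test (scipy 1.17.1). Means are ± SD and log2 differences ± SE, knockout label minus wild type.

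Named genes are Nrsn2, Nrsn1, called genes within 5 Mb of Nrsn2, the 15 highest and 15 lowest called differences (mean RPKM at least 1, groups not overlapping), the 4 smallest p of each described list and window, and 12 fixed genes. Names outside this rule were chosen after their values were seen. Members and lists were chosen with earlier results of these data known, and lists share members. Sequence comes from RefSeq (GRCm38.p6), and shared 75-base stretches from GENCODE vM21 transcripts. Some genes are not reported here.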

Additional observations from a re-analysis of the deposited data

Results flagged for a closer look

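In groups of 5, a library was flagged when it lay far from the other 4 (a gap of more than 0.71 of the group's range). Of 238 groups of named genes, 16 were flagged, and chance flags about 1 in 20.

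Library 10 of the knockout label stood apart in Atf4 (57.7 RPKM against 49.8 to 51.0 in the other 4), Mthfd2 (3.00 against 2.42 to 2.57), Hspa5 (97.8 against 78.9 to 82.4), BC002163 (93.2 against 79.8 to 82.9), Gabbr2 (39.0 against 45.3 to 47.5) and Prkcd (5.83 against 4.05 to 4.14). Library 10 of the wild type stood apart in Olfml3 (3.36 against 2.78 to 2.90), Fcrls (8.92 against 5.85 to 6.50) and Slc17a6 (4.78 against 6.17 to 6.63). Both libraries have high Xist.

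Wild-type library 8 stood apart in Zfp982 (1.17 against 0.044 to 0.22) and Cfap54 (1.02 against 1.46 to 1.59), on the side of the knockout label in each. Single flags were Gm6293 in wild-type 9 (1.23 RPKM), S100a10 in wild-type 6 (8.18), Crocc in knockout-labelled 8 (11.97), Entpd4 in knockout-labelled 7 (11.9) and Fkbp5 in knockout-labelled 9 (11.4).

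The genotype difference after CSDS minus that in undefeated mice passed for the following named genes in a limma interaction term (adjusted p of 0.05). On the log2 scale it was −1.77 for Zfp982, −1.74 for Pisd-ps1, −1.59 for Pisd-ps2, −0.86 for Mfap2, −0.81 for Wdfy1, −0.73 for Arhgef19 and −0.52 for Olfml3. It was 0.61 for Cfap54, 0.39 for BC002163 and 0.33 for Prdm2. The causes were not tested.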

How the results depend on the processing

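Of 209 called genes, 148 higher and 61 lower, the alternatives gave the following totals. Pseudocounts of 0.1 and 1, a filter of mean RPKM 1, no filter, quantile normalization, no trend and robust moderation gave 168 to 210. Median centring gave 116 (77 higher, 39 lower). Adding the 3 conflicting libraries as controls gave 978 (638 and 340), and fitting all 20 libraries gave 722 (448 and 274). Without both libraries numbered 10 the total was 270, with 116 lower, and 57.04% higher against 70.8%. Leaving out 1 library gave 68 to 218, with 52 to 140 higher and 16 to 78 lower. The labels do not say that equal numbers share a source. The deviations of 3 of 5 equal-numbered pairs correlated over 0.1 (r from −0.114 to 0.366) and 5 of 10 libraries correlated best with their own number, so a pairing was neither shown nor excluded. With the number as a replicate block 45 genes were called (29 higher, 16 lower), 39 of them among the 209, and 29 of the 70 named calls were kept. The higher calls then numbered 2 in the ATF4 list, 1 among Bex and Tceal genes, 2 among mitochondrial tRNA genes and 0 among Snrp and Hnrnp genes and the synthetases. Adjusted p was then 0.0811 for Atf4 and Bdnf, 0.0805 for Mthfd2, 0.0595 for Bex4 and 0.0818 for Gfap. Nrsn2 passed under no alternative. The 23 genes called under all 22 alternatives include Gabra2, Nnt, Chac1, Cort, Necab3 and the Tmem254 copies. Directions reversed for Ttr without wild-type 6 (−0.64) and with the conflicting libraries (−0.63), for Wdfy1 with the latter (0.00066), for Gria1 without wild-type 7 (−0.0029) or knockout-labelled 7 (−0.016) and for Gria2 without knockout-labelled 7 (−0.0092). None of these was called, and without 1 library they ran from −0.64 to 1.39 for Ttr, −0.016 to 0.055 for Gria1 and −0.0092 to 0.069 for Gria2. The causes were not tested. With 5 libraries a group, differences under the spread between libraries were not detectable.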
